A study of Mus musculus with 18 samples.

Results

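Tmem132b, Uts2d and Tecrl are the 3 genes, of 23425 in the muscle RNA-seq table, that stood out by the size of their early rise: they were near absent at 2 months of age and expressed at 20 and 28 months. They were chosen on these measured values. Genes called between 20 and 2 months (limma, adjusted p under 0.05), with all 20-month libraries above all young ones, were ordered by log2 difference. The 3 genes head this order. Their own changes with age are therefore described here without a test. The muscle came from the hindlimbs of female C57BL/6J mice aged 2, 20 or 28 months, with 3 mice per age. Age was the only labelled difference between the groups. RNA-seq was made for each mouse, giving 9 libraries, whereas the DNA of the 3 mice of an age was pooled before methylated fragments were captured with a methyl-CpG-binding domain (MBD-seq). The same capture was done for T cells from the spleen, also with 1 pool per age. Whole hindlimb muscle holds fast and slow fibres, nerve, vessels, fat and connective tissue, so a difference in RNA may be a difference in cells of a type or in RNA per cell, and these cannot be told apart.

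The 3 genes belong to unrelated families. Tmem132b encodes a member of the TMEM132 family, single-pass membrane proteins studied mostly in the nervous system. Uts2d is the older symbol of Uts2b and encodes a precursor of urotensin II-related peptide, a short vasoactive peptide that acts on the urotensin receptor encoded by Uts2r. Tecrl encodes a relative of the enoyl-CoA reductase Tecr, which completes the elongation cycle of very long chain fatty acids. It is known from the heart, and human mutations in it cause an inherited arrhythmia with disturbed calcium release.

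In the RefSeq annotation of GRCm38 (mm10), Tmem132b lies on the plus strand at chr5:125532418-125792583, with 9 exons that total 7964 bases. Uts2d lies on the minus strand at chr16:27353322-27370239, with 5 exons and 835 exonic bases. Tecrl lies on the minus strand at chr5:83278122-83355195, with 12 exons and 2373 exonic bases. The noncoding genes Gm32811 and Gm51294 lie inside Tmem132b without touching its exons. No other annotated gene overlaps Uts2d or Tecrl.

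The 250 bases before each annotated start are shown for their CpGs, on which a methyl-CpG capture depends. The windows measured further below are longer and hold other CpGs too. The sequences are from RefSeq (GRCm38.p6), read 5′ to 3′ on the strand of the gene, and capitals mark CpG dinucleotides. They span chr5:125532168-125532417 for Tmem132b, chr16:27370240-27370489 for Uts2d and chr5:83355196-83355445 for Tecrl.
Tmem132b: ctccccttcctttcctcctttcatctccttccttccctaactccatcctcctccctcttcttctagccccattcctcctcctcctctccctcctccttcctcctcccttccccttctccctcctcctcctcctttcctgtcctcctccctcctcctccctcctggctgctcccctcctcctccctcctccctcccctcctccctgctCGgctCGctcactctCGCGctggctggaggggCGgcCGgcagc
Uts2d: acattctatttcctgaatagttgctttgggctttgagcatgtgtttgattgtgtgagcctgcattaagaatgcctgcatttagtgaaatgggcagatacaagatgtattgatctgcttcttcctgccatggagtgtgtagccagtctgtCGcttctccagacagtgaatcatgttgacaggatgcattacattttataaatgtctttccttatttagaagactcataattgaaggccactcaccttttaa
Tecrl: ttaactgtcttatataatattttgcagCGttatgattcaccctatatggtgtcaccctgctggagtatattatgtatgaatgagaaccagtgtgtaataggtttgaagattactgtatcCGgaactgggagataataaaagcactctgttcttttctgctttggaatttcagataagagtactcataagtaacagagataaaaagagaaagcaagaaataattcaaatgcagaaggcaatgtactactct

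The Tmem132b sequence is pyrimidine-rich and holds 6 CpGs, all close to the start, with 64.8% GC. Uts2d holds 1 CpG with 39.6% GC, and Tecrl holds 2 CpGs with 34.4% GC. Over 27025 such sequences, the median was 6 CpGs and 52.0% GC, and 4.62% had a lower GC content than Tecrl. TATAAA was looked for on both strands, with overlapping matches counted. It was found in Uts2d, where 2 matches overlap and the forward one begins 56 bases before the start, and in neither of the others. It was present in 13.0% of all the sequences. CANNTG, which reads the same on both strands, was found once in Uts2d, once in Tecrl and not in Tmem132b, against 66% of all sequences with a match.

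Libraries held 33051271 to 121485345 reads on genes. The deposited values are normalized counts, which are reads divided by 1 factor per library, and 1 read was worth 0.545 to 2.23 normalized counts. Some libraries stood apart. The summed markers of bone marrow reached 5971 normalized counts in library 1 of 2 months and 169 to 425 in the others. Those of bone and cartilage were 7959 in library 1 and 4506 in library 3 of 2 months, against 895 to 2025 elsewhere. Fast fibre markers, which define most of the hindlimb, were the most abundant of the marker lists in all 9 libraries. The libraries numbered 3 at each age had the lowest sums of normalized counts over all genes, 62.4 to 66.2 against 87.7 to 98.1 when counted in units of 1e6.

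Tmem132b had 4.46, 1.76 and 10.1 normalized counts in libraries 1, 2 and 3 of 2 months, which rest on 17 reads in all. At 20 months the values were 415, 368 and 320, and at 28 months they were 490, 388 and 370. Every older library lay above every young one, and the older groups overlapped each other. The means were 5.44 ± 4.26, 368 ± 47.2 and 416 ± 64.5 normalized counts (SD, n = 3) at 2, 20 and 28 months. The coefficient of variation among mice was 12.8% at 20 months and 15.5% at 28 months.

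Uts2d had 4.46, 0 and 0.722 normalized counts at 2 months, which are 3 reads in all. It had 105, 110 and 95.9 at 20 months, the narrowest spread of the 3 genes, with a coefficient of variation of 6.74%. At 28 months the values were 83.5, 37.3 and 111, and library 2 was the lowest of the older libraries. The means were 1.73 ± 2.39, 103 ± 6.97 and 77.4 ± 37.4 normalized counts (SD, n = 3). Again no older library reached down to the young ones.

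Tecrl had 2.23, 3.52 and 4.33 normalized counts at 2 months, from 9 reads. The values were 189, 72.6 and 192 at 20 months and 239, 108 and 211 at 28 months. In both older groups the library numbered 2 was the lowest. The means were 3.36 ± 1.06, 151 ± 68.0 and 186 ± 69.3 normalized counts (SD, n = 3), with a wider spread among older mice than for Tmem132b.

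**Figure D1:**
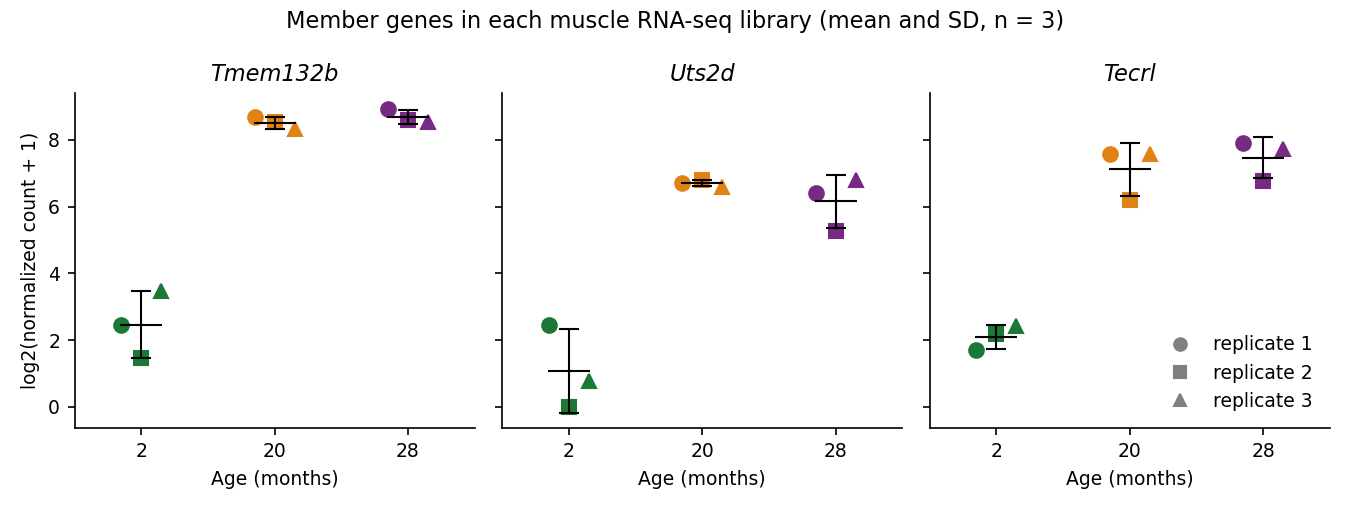
Level of Tmem132b, Uts2d and Tecrl in each of the 9 muscle RNA-seq libraries, as log2 of the normalized count plus 1, against age in months. Points are libraries shaped by replicate number and bars are the mean and SD of 3 libraries; the 3 young libraries lie below all 6 older ones for each gene, and the older ages overlap.

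Differences between ages are given as differences of mean log2(normalized count + 1) with a 95% interval from the fit over all tested genes. The members were chosen for the size of their early rise, and the intervals make no allowance for that choice. For Tmem132b the difference was 6.06 (5.22 to 6.90) between 20 and 2 months and 6.23 (5.39 to 7.07) between 28 and 2 months. Uts2d differed by 5.63 (4.31 to 6.94) and 5.08 (3.77 to 6.39), and Tecrl by 5.03 (4.08 to 5.97) and 5.37 (4.43 to 6.32). Both comparisons share the 3 young libraries. The added 1 shrinks these differences where the young level is a few reads, so the ratio of summed reads per library factor was computed too. Between 20 and 2 months it was 49.0 for Tmem132b (exact 95% interval 30.5 to 84.4), 80.2 for Uts2d (27.2 to 391) and 44.7 for Tecrl (23.3 to 98.2). The intervals cover counting error only and are wide because 17, 3 and 9 young reads stand in the denominators.

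Between 28 and 20 months the order of the levels was not resolved for any of the 3 genes. The log2 difference was 0.17 (-0.67 to 1.01) for Tmem132b, -0.55 (-1.86 to 0.77) for Uts2d and 0.35 (-0.60 to 1.29) for Tecrl. Among the libraries numbered 1 and 2, Tmem132b differed by 6.66 between 20 and 2 months, and by 4.85 between the libraries numbered 3. For Uts2d these values were 5.53 and 5.81, and for Tecrl 4.95 and 5.18. The Tmem132b difference was thus smaller within the libraries numbered 3, where its young level was highest.

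Per kilobase of exon, levels can be compared between genes. At 20 months Uts2d reached 124 ± 8.35 normalized counts per kb, Tecrl 63.6 ± 28.6 and Tmem132b 46.2 ± 5.92 (SD, n = 3). At 28 months they were 92.7 ± 44.8, 78.4 ± 29.2 and 52.2 ± 8.10. The short Uts2d transcript was therefore the most abundant per length at 20 months, although Tmem132b gave most reads. At 28 months the neighbouring levels in this order differed by less than their spread.

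Just outside this choice, the next genes in the same filtered order were the noncoding Nkx2-2as (4.41), Ostn (4.35), Lrrc52 (4.28) and Tekt1 (4.09). Tecrl, the lowest member, had 5.03. These are log2 differences between 20 and 2 months. Nkx2-2as was as near to absence at 2 months as the members, with a mean of 1.20 normalized counts, but reached 35.9 at 20 months. Ostn started at 236 and reached 4473.

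Position was not used in the choice, so the genes around each member could be tested. Genes were called at an adjusted p under 0.05 (limma, Benjamini-Hochberg over 13183 genes with a mean of at least 10 normalized counts). Over all genes tested, 16.5% were called between 20 and 2 months, 13.8% between 28 and 2 months and 0.379% between 28 and 20 months. Within 500 kb of a member's start lay the starts of 10 other genes in the table, of which 8 were tested. Of these, 5 were called between 20 and 2 months, 3 between 28 and 2 months and 0 between 28 and 20 months. Between 28 and 20 months, 1395 of all genes had an unadjusted p under 0.05, and edgeR and DESeq2 called 0 of these neighbours as well. With the libraries rescaled to the same sum, 1 neighbour, Ostn, was called in each comparison with 2 months. Leaving out library 1 or 3 of 20 months, or 1 or 3 of 2 months, left 3 at 20 months, and leaving out library 2 or 3 of 28 months, or 1 of 2 months, left 1 at 28 months.

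Ostn, the neighbour of Uts2d, encodes osteocrin, also called musclin, a secreted peptide of muscle and bone that binds the natriuretic peptide clearance receptor. It had 225, 132 and 352 normalized counts at 2 months, 4405, 4731 and 4282 at 20 months and 4949, 2217 and 3916 at 28 months. No older library overlapped a young one. The log2 difference was 4.35 (SE 0.31, adjusted p = 7.9e-06, limma) between 20 and 2 months and 3.99 (SE 0.31, adjusted p = 8.3e-06, limma) between 28 and 2 months. Both calls stood under all 20 alternatives, with adjusted p up to 0.00028 and 0.00027. Between 28 and 20 months the difference was -0.35 (SE 0.31, adjusted p = 0.74, limma).

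Ostn and Uts2d lie tail to tail on opposite strands, and the annotated end of Ostn is 2112 bases from that of Uts2d. The library kit did not mark strand. Uts2d came to 2.37, 2.32 and 2.24% of the Ostn value in the libraries of 20 months and to 1.69, 1.68 and 2.84% in those of 28 months. At 2 months it was 1.98, 0 and 0.205%, from 2, 0 and 1 reads. The pair was also low together in library 2 of 28 months. Over the 6 older libraries Pearson's r between them was 0.89 and Spearman's rho 0.086, which is a description over libraries that share their preparation. Reads running on from one gene into the other were not tested for.

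**Figure D2:**
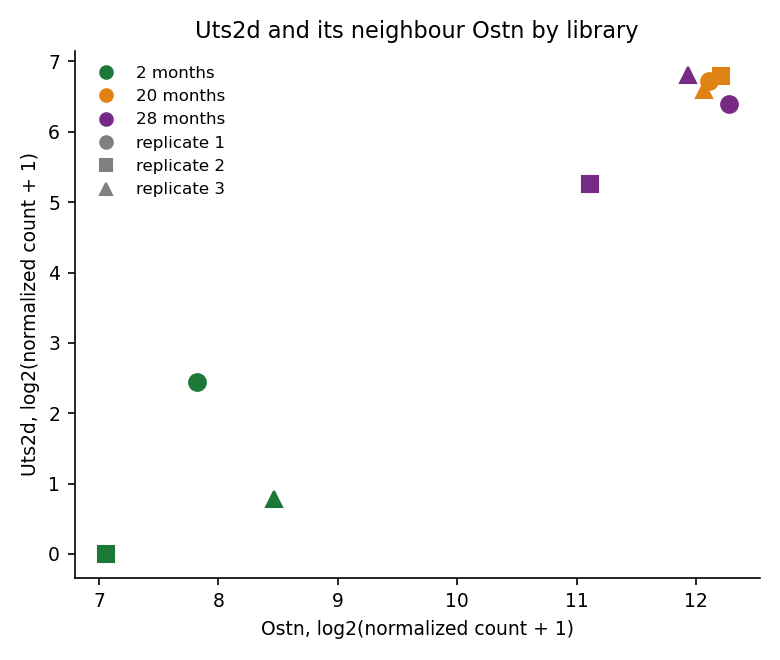
Uts2d against its neighbour Ostn in the 9 muscle libraries, both as log2 of the normalized count plus 1, coloured by age and shaped by replicate number. The young libraries lie at the lower left, 5 older ones lie together at the upper right, and library 2 of 28 months lies between them.

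Ccdc50, whose start is 16.8 kb from that of Uts2d, did not pass the test (log2 difference 0.17, adjusted p = 0.37, limma, between 20 and 2 months). It had 6164 to 6981 normalized counts at 2 months and 7019 to 8047 at 20 months. Gmnc and Gm10823, further away, were at or next to 0 in all libraries.

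Around Tmem132b, 6 genes were tested. Aacs, which encodes acetoacetyl-CoA synthetase and ends 15.0 kb before Tmem132b, fell from 263, 178 and 292 normalized counts at 2 months to 125, 120 and 121 at 20 months. This was a log2 difference of -0.96 (SE 0.20, adjusted p = 0.0070, limma), and the value of 28 months lay between (-0.37, adjusted p = 0.26). Scarb1, the high-density lipoprotein receptor, fell by 0.70 on the log2 scale at 20 months (SE 0.12, adjusted p = 0.0028, limma). Dhx37 and Bri3bp did not pass, with 0.20 and -0.13.

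The differences of Aacs and Scarb1 were under 1 in size on the log2 scale, against 6.06 for Tmem132b. Rescaling ended both calls at 20 months, although the differences stayed at -0.94 for Aacs (adjusted p = 0.18) and -0.68 for Scarb1 (adjusted p = 0.33). No gene of the table had its start within 500 kb of Tecrl.

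The relatives and pathway partners of the 3 genes were described over 6 lists, which hold 48 tested genes other than the members. Between 20 and 2 months 2 of them rose and 13 fell, with a median log2 difference of -0.31 against -0.02 over all genes. Over all genes tested, 9.43% were called higher and 7.12% lower. Between 28 and 2 months 1 rose and 11 fell, with a median of -0.21 against -0.01 over all genes, where 7.53% were called higher and 6.24% lower. Between 28 and 20 months 0 passed with limma, edgeR or DESeq2. Rescaled to the same sum, 3 and 5 were called in the comparisons of 20 and 28 with 2 months. Related genes called at 20 months numbered 8 without library 1 and 7 without library 2 of 20 months. At 28 months they numbered 5 without library 1 or 3 of 28 months or library 1 of 2 months, and 7 without library 3 of 2 months.

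In the urotensin system the values of the peptide precursor and of its receptor differed from those at 2 months in opposite directions. Whether reads running on from Ostn add to those of Uts2d was not tested. Uts2r, the G protein-coupled receptor, had 78.0, 63.4 and 115 normalized counts at 2 months, 37.4, 20.2 and 54.5 at 20 months and 36.1, 26.2 and 37.7 at 28 months. Every older library lay below every young one. It fell at both ages, with a log2 difference of -1.23 (SE 0.39, adjusted p = 0.046, limma) at 20 months and -1.30 (SE 0.39, adjusted p = 0.042, limma) at 28 months. Both calls were close to the threshold. They ended under 13 and 10 of 20 alternatives, among them leaving out any 1 of 7 and of 6 libraries (adjusted p up to 0.17 and 0.14). Uts2, which encodes urotensin II itself, was at 0 in all 9 libraries.

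Of the TMEM132 family, Tmem132a and Tmem132c were tested beside Tmem132b. Tmem132a had 196, 273 and 204 normalized counts at 2 months and 159, 106 and 139 at 20 months, and fell by 0.73 (SE 0.21, adjusted p = 0.032, limma). This call ended when any 1 of 4 libraries was left out (adjusted p 0.050 to 0.13) and after rescaling. Tmem132c had 13.4, 14.1 and 20.9 normalized counts at 2 months and 0, 5.06 and 4.36 at 20 months, with a difference of -2.40 that did not pass (adjusted p = 0.070, limma). Tmem132d and Tmem132e were below the level tested, with no library above 13.4 normalized counts.

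Tecr, the enzyme that Tecrl resembles, was abundant at every age. It had 8334, 7746 and 9268 normalized counts at 2 months and 11903, 11781 and 9790 at 20 months, and rose by 0.40 (SE 0.10, adjusted p = 0.018, limma). The call ended without any 1 of 4 libraries (adjusted p 0.053 to 0.089) and after rescaling. Srd5a1 and Srd5a3, steroid reductases of the same family, did not pass.

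Among 12 tested genes of very long chain fatty acid elongation, Tecr was the one that rose at 20 months, and 3 fell, against 9.43% higher and 7.12% lower over all genes, so that 1 of 12 higher is near the background. Ptpla, now called Hacd1, encodes the muscle dehydratase that acts just before the reductase. It had 2249 to 2585 normalized counts at 2 months, 935 to 1073 at 20 months and 881 to 1106 at 28 months, with no overlap. The log2 difference was -1.28 (SE 0.10, adjusted p = 2.0e-05, limma) and then -1.26 (adjusted p = 1.2e-05), and neither call ended under any of 20 alternatives.

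Elovl6, the elongase of palmitate, fell most in this list. It went from 517, 238 and 437 normalized counts at 2 months to 20.5, 32.1 and 40.9 at 20 months, and stood at 43.6, 221 and 126 at 28 months. The differences were -3.61 (SE 0.49, adjusted p = 0.00045, limma) and -1.81 (SE 0.49, adjusted p = 0.027, limma). The second ended without any 1 of 4 libraries (adjusted p 0.059 to 0.11). Elovl5 fell by 0.50 at 20 months (adjusted p = 0.016, limma), a call that ended without library 3 of 20 months (adjusted p = 0.063) and after rescaling. Elovl6 and other lipid-making genes are also strong in fat: of 8 adipocyte markers, 5 fell and 1 rose at 20 months, against 7.12% lower and 9.43% higher over all genes, and the part of fat cells in this result was not tested.

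**Figure D3:**
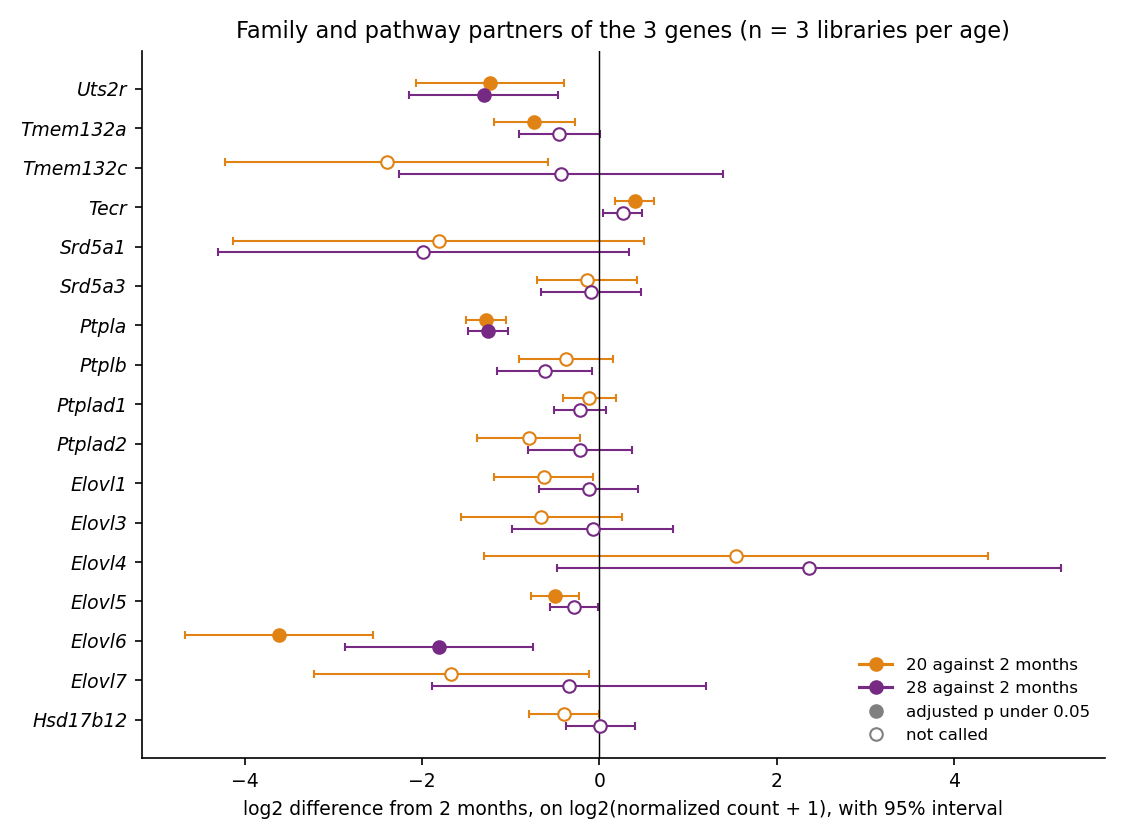
Log2 difference from 2 months, on the log2(normalized count + 1) scale, for family and elongation-pathway genes of the 3 members at 20 months (orange) and 28 months (purple), with 95% intervals from the limma fit on 3 libraries per age. Filled points passed an adjusted p of 0.05; Ptpla, Elovl6 and Uts2r lie below 0 at both ages, and Tecr lies above 0.

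The list of sarcoplasmic reticulum calcium release holds the genes of the disease class in which human TECRL falls. At 20 months 5 of its 14 tested genes fell and 0 rose (limma), against 7.12% lower and 9.43% higher over all genes. Casq1, the calsequestrin of fast fibres, fell by 0.84 (SE 0.12, adjusted p = 0.00062, limma) and at 28 months by 1.01 (adjusted p = 0.00018). The junctophilin Jph2 fell by 0.80 (adjusted p = 0.00023) and 0.87 (adjusted p = 0.00015). Casq2, the calsequestrin of heart and slow fibres, had differences of 0.74 (adjusted p = 0.053) and 0.79 (adjusted p = 0.046). Leaving out any 1 of 7 libraries ended the latter call (adjusted p 0.055 to 0.18). Rescaling ended all 5 calls of this list at 20 months, although the differences stayed close to their size. They were then -0.81 for Casq1 (adjusted p = 0.071), -0.77 for Jph2 (0.089), -0.45 for Calm2 (0.67), -0.35 for Asph (0.82) and -0.34 for Calm3 (0.83), against -0.84, -0.80, -0.47, -0.38 and -0.37 before. At 28 months it ended that of Jph2 (adjusted p = 0.069) and not that of Casq1 (adjusted p = 0.020). Ryr1, the release channel itself, did not pass (0.35, adjusted p = 0.067).

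Among 17 tested vasoactive peptides and receptors, 3 fell and 1 rose at 20 months, against 7.12% lower and 9.43% higher over all genes, so that the rise of 1 gene is no more than that share. The fallers were Edn3 (-2.39, adjusted p = 0.036), Agt (-0.50, adjusted p = 0.021) and the natriuretic receptor Npr1 (-0.48, adjusted p = 0.024). Npr3, the clearance receptor to which the Ostn product binds, rose by 1.16 (SE 0.35, adjusted p = 0.041, limma). It had 508, 1485 and 395 normalized counts at 2 months and 1870, 1424 and 1248 at 20 months, so the groups overlapped. Its call ended without any 1 of 8 libraries (adjusted p 0.054 to 0.15). The calls of Edn3, Agt and Npr1 ended without any 1 of 4, 3 and 3 libraries (adjusted p up to 0.12, 0.091 and 0.099).

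Most markers of slow fibres rose at the older ages, as the members did. Of 10 tested, 8 rose and 0 fell at 20 months, and 9 rose at 28 months, against 9.43% and 7.53% higher over all genes, with a median log2 difference of 2.49 and 2.53. Their sum per library was 16338, 132979 and 32768 normalized counts at 2 months, 182143 to 320514 at 20 months and 226697 to 284468 at 28 months. Library 2 of 2 months had the highest sum of the young libraries and library 2 of 20 months the lowest of the older ones. In library 2 of 2 months the members stayed near absent, with 1.76 (Tmem132b), 0 (Uts2d) and 3.52 (Tecrl) normalized counts. The young sums lay below all older ones, and those of 28 months lay within the range of 20 months. The part of slow fibres in these levels was not tested.

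**Figure D4:**
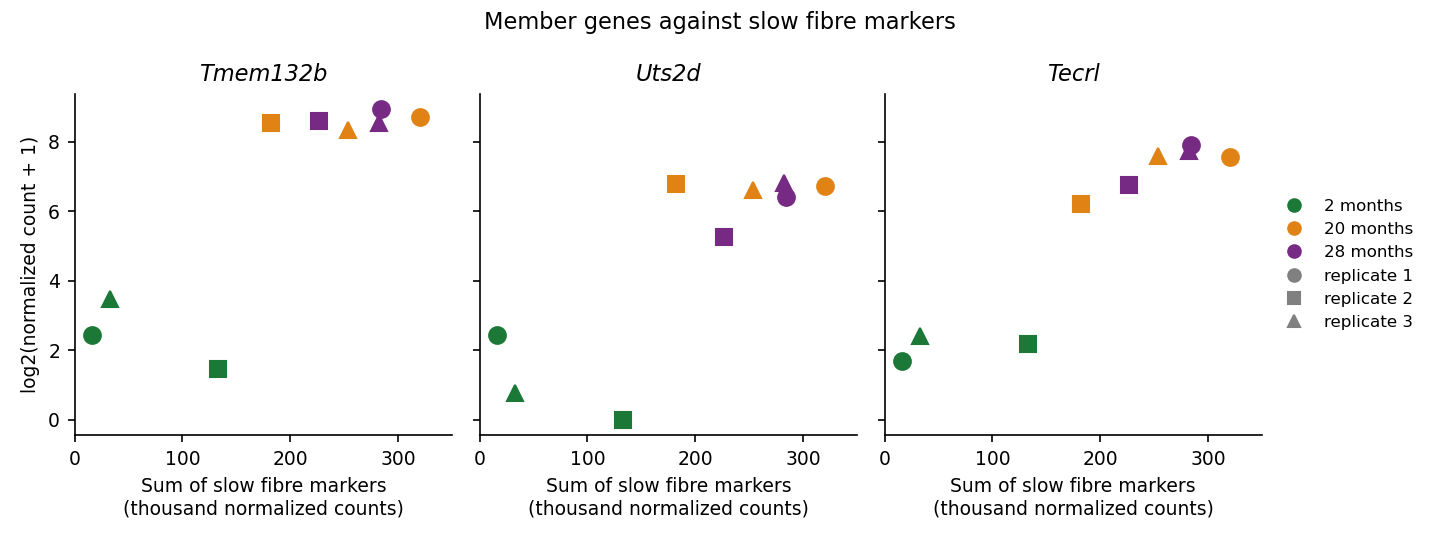
Level of each member, as log2 of the normalized count plus 1, against the summed normalized counts of 10 slow fibre markers (axis in units of 1000) for the 9 libraries. The young libraries have sums of 16338 to 132979 and the older ones of 182143 to 320514, so that both axes separate the young from the older libraries.

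Markers of denervated fibres moved as well, with 8 of 13 risen and 0 fallen at 20 months and 11 risen at 28 months, against 9.43% and 7.53% higher over all genes. The median was 0.66 and then 1.26 on the log2 scale. Musk, the kinase of the neuromuscular junction, rose by 1.67 (adjusted p = 0.00058, limma) and 2.07 (adjusted p = 0.00015). Between 28 and 20 months 2 of the 13, Gadd45a and Myog, rose and 11 were not called, against 0.379% called over all genes. The part of denervation in the levels of the members was not tested.

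Heart muscle was looked for because Tecrl is best known there. Of 10 cardiac markers, 5 reached the level tested. Myh6, a cardiac myosin, had a difference of 0.80 at 20 months that did not pass (adjusted p = 0.074, limma). At 28 months it was the 1 marker called of these 5 (0.93, adjusted p = 0.049, limma), against 7.53% called higher over all genes. At 20 months 0 were called, against 9.43% higher over all genes. The paper takes Myh6 as coexpressed with the slow fibre gene Myh7 and reports it significantly higher in both older groups. Myl7 and Mybpc3 were at 0 in all 9 libraries, and Nppa, Nppb and Tnni3 had at most 8.81 normalized counts. The sum of the list was 560 to 920 normalized counts at 2 months, 820 to 925 at 20 months and 840 to 983 at 28 months. Neuron and Schwann cell markers, of interest for Tmem132b, gave 2 fallen and 0 risen of 8 at 20 months (limma), against 7.12% lower and 9.43% higher over all genes.

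The genes whose profile over the 9 libraries was most like each member are named next, by Pearson's r of log2 values among all other tested genes. All 9 libraries fall into a young and an older cluster, so r rests mainly on the gap between them, and it is a description. With Tmem132b these were the unconventional myosin Myo5b (r = 0.989, rho = 0.82), Ostn (0.988, 0.80), the ribosome biogenesis factor Gtpbp4 (0.984, 0.68), the polyadenylation scaffold Sympk (0.984, 0.67) and Rhpn2 (0.980, 0.65). Without library 1 and library 2 of 2 months, the farthest from its median, r was 0.987, 0.959, 0.948, 0.980 and 0.969. Myo5b rose from a mean of 18.5 ± 8.33 to 105 ± 11.7 normalized counts at 20 months (SD, n = 3). Gtpbp4 and Sympk rose in a smaller step, from means of 1767 to 2293 and of 4325 to 5600 normalized counts.

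With Uts2d the likest were Cped1 (r = 0.991, rho = 0.88), Rhpn2 (0.988, 0.97), Plekhb1 (0.986, 0.82), the quinone reductase Nqo1 (0.985, 0.95) and the DNA repair kinase Prkdc (0.982, 0.97). Without libraries 2 and 3 of 2 months r was 0.98, 0.99, 0.97, 0.99 and 0.97. Rhpn2 was thus near the top for Tmem132b as well. It had means of 173 ± 24.2, 753 ± 72.4 and 686 normalized counts at 2, 20 and 28 months. Nqo1 had 564 ± 36.8, 1165 ± 39.4 and 1031.

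With Tecrl they were the ubiquitin hydrolase Uchl1 (r = 0.991, rho = 0.95), the amylase Amy1 (0.986, 0.95), the docking protein Gab2 (0.986, 0.83), Tom1l2 (0.985, 0.95) and Ahcyl1 (0.985, 0.97). Without libraries 1 and 2 of 2 months r was 0.980, 0.966, 0.971, 0.981 and 0.993. Uchl1 had means of 80.0 ± 8.90, 295 ± 35.6 and 360 normalized counts, and Amy1 of 882 ± 78.5, 2368 ± 124 and 2998. The near-identical amylase genes can share reads, so the Amy1 value is uncertain.

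Among the 6 libraries of 20 and 28 months alone, the order of likeness was different. Tmem132b was then most like Nolc1 (r = 0.998), Gabpb1 (0.993) and Musk (0.987). Nolc1 and Gabpb1 had an r of 0.58 and -0.18 over all 9 libraries, while Musk kept 0.93. Uts2d was most like Txlng (0.992), Kdm3a (0.990) and Gspt1 (0.989), and Tecrl like Arhgap28 (0.989), Ahcyl1 (0.989) and Lgi1 (0.987). Ahcyl1, which encodes a regulator of the inositol trisphosphate receptor, was the one gene named for Tecrl in both orders. Over 9 libraries 303, 261 and 370 genes had an r above 0.9 with Tmem132b, Uts2d and Tecrl. Over the 6 older ones these numbers were 71, 276 and 87. Uts2d stood at 37.3 normalized counts in library 2 of 28 months and at 83.5 to 111 in the other older libraries.

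The members were alike over all 9 libraries and not within the older ones. They were chosen for a large rise above the young libraries, so their likeness over the 9 follows largely from that choice. It is therefore no test of whether the members vary together. Over the 9 libraries Pearson's r was 0.96 between Tmem132b and Uts2d, 0.97 between Tmem132b and Tecrl and 0.93 between Uts2d and Tecrl. Over the 6 older libraries it was -0.14, 0.30 and 0.26. Spearman's rho was 0.58, 0.80 and 0.65 over the 9, and -0.37, 0.37 and -0.029 over the 6.

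DNA methylation at the members was read from MBD-seq counts in 500-bp bins, as the mean normalized count of the 3 bins from 1000 bases before to 500 bases after the start. Each value is 1 pool, so no test between ages was possible, and the intervals cover counting error only. The start window of Tmem132b held 1 read in young muscle and 19 in each older pool. In muscle the mean was 0.303 at 2 months (95% Poisson interval 0.00768 to 1.69, from 1 read), 5.33 at 20 months (3.21 to 8.33) and 4.04 at 28 months (2.43 to 6.30). Nearly all reads of the older muscle pools lay in the bin centred 668 bases before the start, with 16.0 and 11.5 normalized counts. The bins centred 168 bases before and 332 bases after the start hold 27 and 59 CpGs. They had 0 reads at 2 and at 20 months, which allows up to 2.73 and 2.53 normalized counts, and at most 0.637 at 28 months. In T cells the window had 0.677, 1.22 and 7.05. The log2 change between 28 and 2 months was 1.95 in muscle, where 93.0% of genes had a lower change, and 2.26 in T cells, where 96.5% did.

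The start of Uts2d was marked at every age. In muscle the mean was 29.4 (23.9 to 35.9) at 2 months, 32.3 (26.6 to 38.7) at 20 months and 21.9 (17.9 to 26.5) at 28 months, against a median of 6.97, 7.30 and 10.2 over 23198 genes. At 2 months 85.9% of genes had a lower value. The bin over the start had 39.1, 37.0 and 19.8 normalized counts at 2, 20 and 28 months. In T cells the window stayed at 48.7, 47.1 and 47.1. The log2 change in muscle between 28 and 2 months, -0.41, became 0.02 when pools were rescaled to the same sum.

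Tecrl had a start window of 5.46 (3.23 to 8.63), 7.02 (4.54 to 10.4) and 9.14 (6.61 to 12.3) in muscle, and neighbouring ages overlapped in their intervals. The log2 change of 0.65 between 28 and 2 months compares with a median of 0.36 over all genes. In T cells the values were 13.9, 3.65 and 8.81. Over the gene body Tecrl was at 6.03, 6.43 and 9.18 in muscle, and 8.23% of genes had a lower value at 2 months. Its body holds 1.93 CpGs per bin on average, against 5.56 for Tmem132b and 2.91 for Uts2d.

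Over the 520 bins of its body, Tmem132b had a mean of 23.0, 22.1 and 19.8 normalized counts in muscle and 24.3, 26.0 and 28.7 in T cells, near the medians of all genes of 22.2, 20.6 and 18.8 and of 23.7, 26.7 and 28.7. Its bin with most signal in young muscle, chr5:125787001-125787500 with 20 CpGs, had 183, 117 and 55.5 normalized counts in muscle and 169, 221 and 307 in T cells. That bin was chosen for its young muscle value. Uts2d had a body mean of 10.7, 11.2 and 10.3 in muscle. In muscle the bodies of all 3 genes had fewer bins without a read at 28 than at 2 months, 4 against 34 of 520 in Tmem132b, 0 against 5 of 32 in Uts2d and 3 against 21 of 153 in Tecrl, as did the whole table (0.640% against 12.1% of bins). In T cells they had more, 74 against 44 in Tmem132b, 13 against 7 in Uts2d and 78 against 56 in Tecrl, as did the whole table (30.3% against 21.3%).

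**Figure D5:**
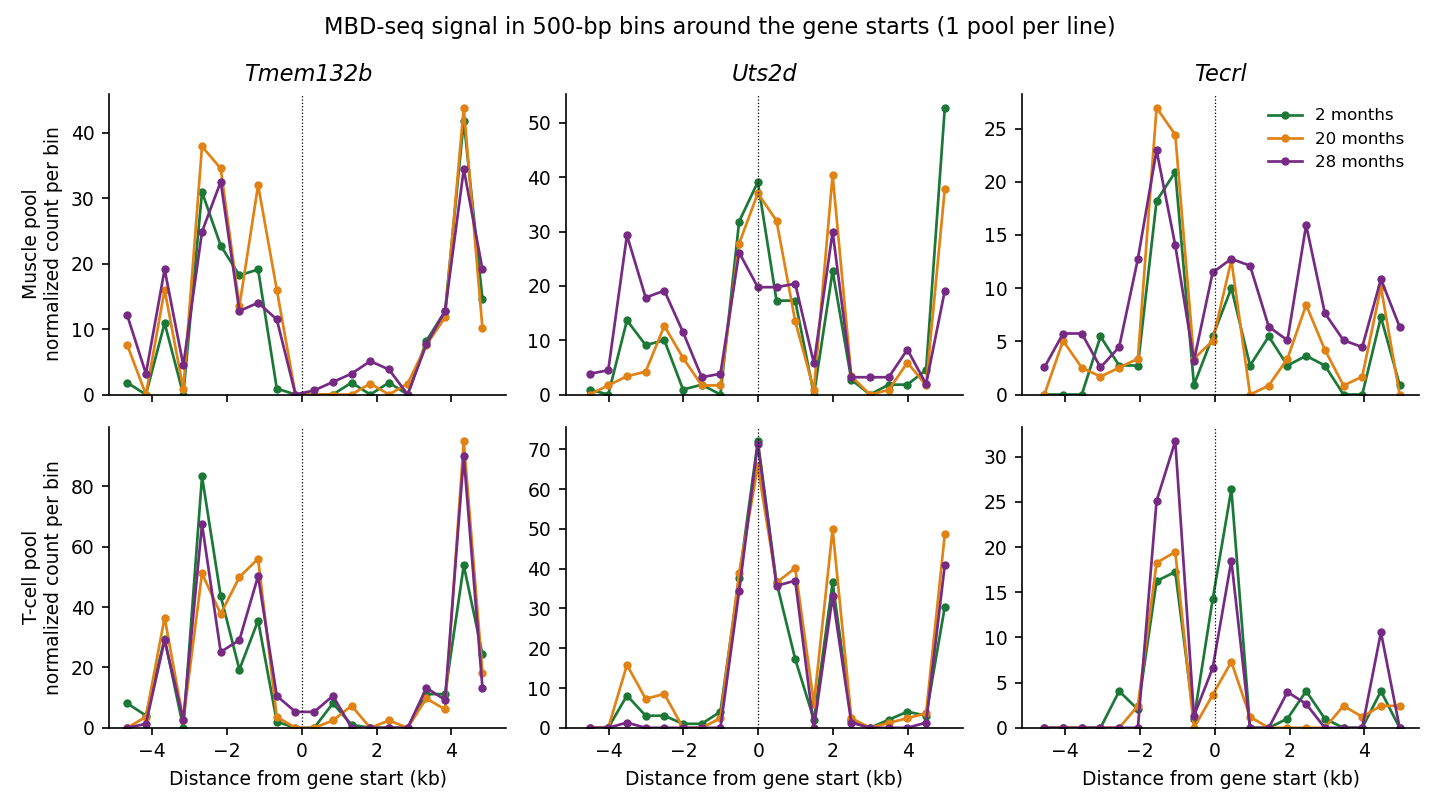
MBD-seq normalized count per 500-bp bin against distance from the gene start in kb, over 5 kb on each side, in muscle (top) and T cells (bottom), 1 line per age and 1 pool per line. Tmem132b has at most 0.637 in the 2 bins nearest its start at all 3 ages in muscle, and the bin over the Uts2d start has 39.1 at 2 months and 19.8 at 28 months in muscle, while that over the Tecrl start has 5.46 and 11.5.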

How the data were processed

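Muscle RNA was sequenced from 9 mice, and MBD-seq was made from 1 pool per age of muscle and T cells. The RNA signal values deposited by the authors are read counts per gene, and the MBD-seq signal values are read counts per 500-bp bin, each divided by 1 DESeq2 size factor per library. Per the paper's methods, the authors trimmed reads with Trim Galore, aligned them to mm10 with Hisat2 (RNA) or Bowtie2 (MBD-seq), and counted them with htseq-count on refSeq genes or bedtools; the submitters' processing notes name TopHat in place of Hisat2. The RNA kit did not mark strand. All nonzero values (100%, tolerance 0.001) divided without remainder by the worth of a single read in their library, so reads could be recovered. Both tables are signal that is scaled, so a log-scale test was used, with a count test as an alternative.

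The 9 RNA libraries were fitted with limma 3.58.1 (trend) in R 4.3.3 on log2(normalized count + 1), with age as the only term, for 13183 genes with a mean of at least 10, and Benjamini-Hochberg adjustment over all of them. As alternatives the reads were tested with DESeq2 1.42.0 and edgeR 4.0.16, each library was left out in turn, and libraries were rescaled to 1 sum. The low-value filter was dropped or set to 50, the pseudocount was 0.1 or 5, libraries numbered 3 were given a batch term, replicate numbers were blocked, or the third age was left out of the fit. Leaving out all libraries numbered 3 was chosen after seeing the data. The scripts were tested on simulated data.

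The members and gene lists were chosen with earlier results of these data known. Named genes are the members, the 5 genes likest each over 9 libraries and the 3 likest over the 6 older ones, called genes of the lists, relatives, and RefSeq genes within 500 kb. The next genes by rise and Ryr1, Myl7 and other markers without a call were named after their values were seen. The lists also covered other cells, of which these were called at 20 months, against 9.43% higher and 7.12% lower over all genes: smooth muscle and pericytes 1 higher and 2 lower of 10, endothelium 0 of 9, macrophages 3 lower of 9, B and plasma cells 0 of 6, fast fibres 1 higher and 3 lower of 11, marrow 1 lower of 7, and bone and cartilage 2 lower of 10. Of 7 T cell markers 0 reached the level tested. RefSeq positions were found for 23234 of 23425 genes, and promoter sequences for all 3 members. MBD-seq bins were averaged by their centres; the columns do not name a round of capture. Some genes that these rules name are not reported here.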

Additional observations from a re-analysis of the deposited data

Results flagged for a closer look

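Methylation values differed in opposite directions between 2 and 28 months in muscle and in T cells in 4 places at the members, on the log2(normalized count + 1) scale. With 1 pool per age and tissue these differences were not tested. In the Tecrl start window the change was 0.65 in muscle and -0.60 in T cells, and over the Tecrl body it was 0.53 and -0.20. Over the Tmem132b body it was -0.21 in muscle and 0.23 in T cells, where the median of all genes was -0.23 and 0.25. In muscle 304 of its 520 bins were higher and 213 lower at 28 months, so that the mean and the count of bins differ in direction there, and in T cells 261 were higher and 231 lower. Over the Uts2d body it was -0.058 and 0.14, while 22 of its 32 bins were higher and 10 lower in muscle, and 12 were higher and 14 lower in T cells, so that its direction differs between the mean and the count of bins in both tissues. Of the 153 bins of Tecrl, 122 were higher and 29 lower in muscle, and 35 were higher and 74 lower in T cells.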

How the results depend on the processing

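The differences of the 3 members from 2 months kept their direction under every alternative run, which the choice of large rises makes likely. Of 144 of their values, those between 28 and 20 months included, 136 moved by less than the spread between replicates. Part of these could not move. The replicate block is balanced over ages, and leaving out a library of the third age does not touch the means compared. The pseudocount moved the other 8. With 5, the difference between 20 and 2 months was 5.23 for Tmem132b, 4.06 for Uts2d and 4.11 for Tecrl, and between 28 and 2 months 5.4, 3.55 and 4.45. With 0.1, Uts2d had 7.16 and 6.61. Leaving out 1 library gave 5.56 to 6.56 (20 against 2 months) and 5.73 to 6.74 (28 against 2 months) for Tmem132b, 5.09 to 6.31 and 4.54 to 5.77 for Uts2d, and 4.79 to 5.48 and 5.15 to 5.72 for Tecrl.

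Counts of calls moved more. Rescaling to the same sum gave 389, 417 and 31 genes called in the comparisons of 20 with 2, 28 with 2 and 28 with 20 months, against 2181, 1816 and 50. It gave 3, 5 and 1 related genes against 15, 12 and 0, and 1, 1 and 0 neighbours against 5, 3 and 0. Leaving out 1 library gave 1083 to 2227, 963 to 1850 and 14 to 88 genes, 7 to 13, 5 to 10 and 0 to 1 related genes, and 3 to 5, 1 to 3 and 0 neighbours. In the comparisons with 2 months the count moved most without library 1 of 20 months (1083), 2 of 20 months (1261) or 1 of 2 months (1407), and without library 1 of 28 months (963), 3 of 28 months (1066) or 1 of 2 months (1109). Without the libraries numbered 3 there were 1099, 694 and 10 genes, 8 and 4 related genes, and 2 and 1 neighbours. With only the groups compared, 76 genes were called between 28 and 20 months, 7 related genes and 1 neighbour between 28 and 2 months, and 3 neighbours between 20 and 2 months. DESeq2 gave 227 and the batch term 108 genes between 28 and 20 months. The replicate number as a block gave 143 there, and 2982 and 2523 genes in the comparisons with 2 months. Libraries numbered 3 deviated together across the ages (r of 0.111, 0.151 and 0.163), whereas r was at most 0.1 for the pairs numbered 1 or 2, so numbers as a whole were not taken as pairs. Rescaling moved the median of all genes by 0.07 at most. The cause was not tested. Of 698 alternative values of called related and neighbouring genes, 181 lost the call and 0 reversed.

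For methylation, the Uts2d change of -0.41 in muscle became -0.95 over a window of 500 bases before to 250 after the start and 0.018 after rescaling. Of the 5 genes likest each member, 0 (Tmem132b), 2 (Uts2d) and 0 (Tecrl) were among the 5 highest by Spearman's rho, and 0, 0 and 1 without the libraries of 2 months. At 2 months the members rest on 3 to 17 reads, which limits every ratio to that age.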
